A study of Mus musculus with 16 samples.

Results

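The replication-dependent histone genes are the clustered genes that supply the core histones H2A, H2B, H3 and H4 and the linker histone H1 for new chromatin. Members were all genes of the series table whose symbol starts with Hist1h, Hist2h, Hist3h or Hist4h, which gave 67 of 23279 symbols. They comprised 6 H1, 18 H2A, 18 H2B, 12 H3 and 13 H4 genes, and the symbols stand as the files give them. The study profiled polyA RNA of mouse pre-B cells by RNA-seq in 16 libraries, to compare cells with and without the fusion kinase BCR-ABL1 and the phosphatase SHP2, encoded by Ptpn11. The 4 groups of 4 libraries were labelled BCR-ABL NULL (-/-) with SHP2 WT (+/+), BCR-ABL NULL (-/-) with SHP2 NULL (-/-), BCR-ABL WT (+/+) with SHP2 WT (+/+), and BCR-ABL WT (+/+) with SHP2 NULL (-/-). In what follows BCR-ABL NULL is written as without BCR-ABL1 and BCR-ABL WT as with it. The labels give neither the way BCR-ABL1 was introduced nor the way SHP2 was removed. They also do not state that replicates of a group are different animals or cultures, so the p-values rest on a spread that may be technical. Values are FPKM (fragment counts scaled to transcript length and to library size), and the depth behind them is unknown.

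Replication-dependent histone mRNAs are made in S phase, when DNA synthesis needs new nucleosomes, and are degraded when replication stops. Most carry no poly(A) tail. The transcript is cut a few bases after a conserved stem-loop that is bound by the stem-loop binding protein SLBP, with the U7 snRNP guiding the cut, while NPAT and CASP8AP2 act at the histone locus body where the clusters are transcribed. Rapidly cycling pre-B cells hold many S-phase cells. Selection of polyA RNA keeps such mRNAs only in part, so their level was set beside that of Rpph1, the RNA subunit of RNase P, and Rmrp, the RNA subunit of RNase MRP, which also lack a poly(A) tail.

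The stem-loop was present in the annotated transcripts (GENCODE M21, GRCm38) of 46 of 67 members, or 68.7%, against 40 of 55274 other genes, or 0.0724%. It took 8 forms, of which 1 was shared by 26 members of the H1, H2A, H2B and H3 classes and another by 7 members, all H4. The form next in number was found in 6 members of H1, H2B and H3. The sequences show these forms and 3 rarer ones, and close with Hist3h2ba, which carries the commonest form and is described below for its change with SHP2 loss. They are given with the stem-loop of 16 bases in capitals and 5 flanking bases on each side.
Hist2h2aa1 (chr3:96246027-96246052, plus strand): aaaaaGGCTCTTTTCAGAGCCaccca
Hist1h2bb (chr13:23747198-23747223, plus strand): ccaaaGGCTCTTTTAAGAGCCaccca
Hist1h4c (chr13:23698084-23698109, minus strand): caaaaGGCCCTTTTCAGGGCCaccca
Hist1h4b (chr13:23757361-23757386, plus strand): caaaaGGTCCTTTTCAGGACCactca
Hist1h4a (chr13:23760795-23760820, minus strand): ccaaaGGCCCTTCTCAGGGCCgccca
Hist1h3g (chr13:23535884-23535909, plus strand): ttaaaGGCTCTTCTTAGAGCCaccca
Hist3h2ba (chr11:58949344-58949369, plus strand): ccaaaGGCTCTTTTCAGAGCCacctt
Of the 46, 23 had a transcript model that ended at most 100 bases after the stem-loop and 23 had a longer one. Hist1h4c, for example, ran 454 bases past it and Hist1h2bb 23 bases. Of the 21 members without it, 16 had a longest model of at most 500 bases. Hist2h2be, with a model of 2620 bases, was among the rest. The members lay on chromosome 13 (53 genes), chromosome 3 (10), chromosome 11 (3) and chromosome 6 (Hist4h4). The H2A, H2B, H3 and H4 genes include near-identical copies. In 24 members over 50% of the 100-base windows of the transcript were also present in another gene, and 60 shared at least 1 window, so the level of a single copy is uncertain where its reads could be split.

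Promoter sequences (RefSeq, GRCm38.p6, from 250 bases before to 50 bases after the start) matched 61 members. The TATA box letters TATAAA were found on either strand in 57.4% of them and in 14.2% of 27025 promoters of the same length. The CCAAT box CCAAT was found in 85.2% against 37.9%. It was present in every matched H1, H2A, H2B and H3 promoter and in 25% of the 12 H4 promoters. The octamer ATTTGCAT, which POU factors such as the lymphoid OCT2 can bind, was found in 21.3% against 1.75%, in 7 of 18 H2A and 6 of 15 H2B promoters and in none of the other classes. These 13 promoters hold 10 octamer sites, because 3 sites lie between divergent H2A and H2B genes and count for both (Hist1h2ah with Hist1h2bk, Hist1h2ae with Hist1h2bg, and Hist1h2aa with Hist1h2ba). The promoters of other divergent H2A and H2B genes overlap as well, for example those of Hist1h2ad and Hist1h2bf. Matches of any motif searched can therefore count for both genes, and the shares given here were not corrected for this. The single TATA box match of Hist1h2bf is also that of Hist1h2ad, and the one of Hist1h2bk is also that of Hist1h2ah. The motif AAACACA, known from H1 genes, was found in 5 of 6 H1 promoters and in 7.14% of all. It was also found in 2 of 18 H2A and 2 of 15 H2B promoters, and in no H3 or H4 promoter. Each motif was searched on both strands, and none of the 4 contains another. The 150 bases before the start are given for a well-expressed gene of 3 classes that differ in these motifs, with every match in capitals.
Hist1h2bb (chr13:23746584-23746733, plus strand): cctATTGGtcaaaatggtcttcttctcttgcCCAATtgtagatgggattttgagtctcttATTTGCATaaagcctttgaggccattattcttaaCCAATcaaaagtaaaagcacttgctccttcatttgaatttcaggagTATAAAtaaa
Hist1h1e (chr13:23622559-23622708, minus strand): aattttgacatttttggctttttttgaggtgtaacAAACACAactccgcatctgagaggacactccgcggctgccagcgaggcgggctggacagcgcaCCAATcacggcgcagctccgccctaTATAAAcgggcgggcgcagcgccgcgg
Hist1h4m (chr13:21811596-21811745, plus strand): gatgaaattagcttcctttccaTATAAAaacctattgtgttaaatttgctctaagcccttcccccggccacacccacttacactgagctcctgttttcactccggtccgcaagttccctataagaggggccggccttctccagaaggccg
Hist1h2bb carried the octamer, CCAAT and TATAAA, Hist1h1e the motif AAACACA in place of the octamer, and Hist1h4m a single TATAAA. That match begins 128 bases before the annotated start, against 10 bases in Hist1h2bb and 27 in Hist1h1e. The distance was no part of the search, so these are matches of letters only, and their use as a TATA box was not tested.

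Histone transcripts were abundant and uneven between genes. Averaged over 16 libraries, 64 of 67 members reached 1 FPKM, 60 reached 10 FPKM and 37 reached 100 FPKM. The 3 highest were the H2B genes Hist2h2bb (2450 FPKM) and Hist1h2bb (1247 FPKM) and the linker histone gene Hist1h1a (1438 FPKM). Hist2h2bb lies at chromosome 3, 96269752 to 96270132, and Hist1h1a at chromosome 13, 23763666 to 23764406 (GRCm38). The median member averaged 288 FPKM in H1, 246 FPKM in H4, 214 FPKM in H2B, 180 FPKM in H3 and 15.5 FPKM in H2A. The leading genes of the other classes were Hist2h2aa1 at 227 FPKM, Hist1h3i at 282 FPKM and Hist1h4c at 592 FPKM. Members known from testis were low, with Hist1h1t at 1.37 FPKM, Hist1h2ba at 3.41 FPKM and Hist1h2aa at 0.0383 FPKM. Hist1h2ap was listed at 2.43e-06 FPKM and Hist2h2aa2 at 0.702 FPKM, and both share most of their sequence with other members. A gene was tested where it reached 1 FPKM in at least 4 libraries, which left 65 members and left out Hist1h2aa and Hist1h2ap.

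The summed level of the 67 members varied more within each group than between groups. In replicates 0, 1, 2 and 3 the sum was 7996, 14854, 17261 and 19725 FPKM in SHP2 wild-type cells without BCR-ABL1. It was 12276, 15710, 16027 and 26114 FPKM in SHP2-null cells without BCR-ABL1. With BCR-ABL1 it was 10316, 12382, 27576 and 14686 FPKM where SHP2 was wild type. It was 7340, 13821, 12036 and 23091 FPKM where SHP2 was null. All 4 groups overlapped. Replicate 0 was the lowest library in 4 of 4 groups, and the highest was replicate 3 in 3 groups and replicate 2 in the group with BCR-ABL1 and wild-type SHP2. The members took between 2.10% and 6.21% of the summed FPKM of a library. In bulk samples fewer cells in S phase and less histone mRNA per cell cannot be told apart.

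Rpph1 and Rmrp put the libraries in much the same order. Rpph1 read 2028, 7123, 7253 and 10032 FPKM in SHP2 wild-type and 4172, 7076, 8825 and 13463 FPKM in SHP2-null cells without BCR-ABL1. With BCR-ABL1 it read 3047, 5659, 16292 and 5223 FPKM in SHP2 wild-type and 1193, 6574, 3657 and 11904 FPKM in SHP2-null cells. For Rpph1, Rmrp and the telomerase RNA Terc, too, replicate 0 was the lowest library in 4 of 4 groups, with the highest the same replicate as for the histone sum. Rmrp ran from 1166 to 7869 FPKM and Terc from 3.05 to 38.7 FPKM. Per the labels' protocols, each sequencing load held 1 library per group. Whether the replicate number names the load is not stated, and its part in the result was not tested.

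**Figure D1:**
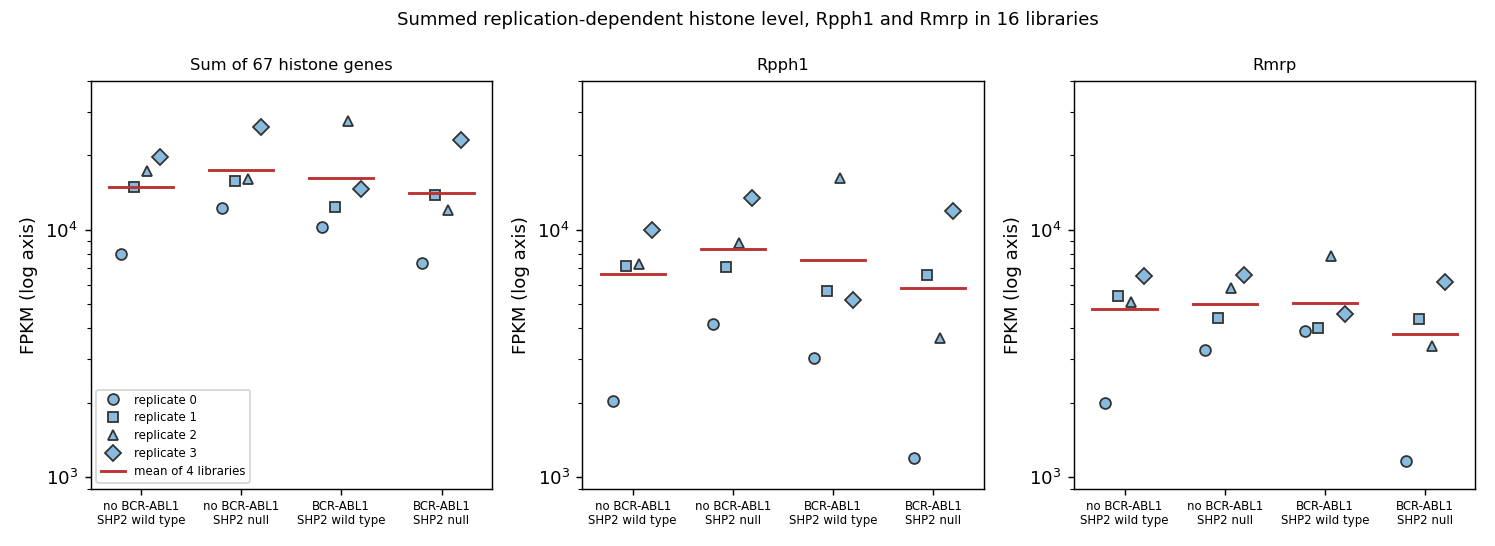
Summed FPKM of the 67 histone genes, Rpph1 and Rmrp (log axes) in each library, by group, with the symbol giving the replicate number and the red line the group mean of 4. Replicate 0 is the lowest point in every group and panel, and the 4 groups overlap.

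Across the 16 libraries the log2 histone sum followed log2 Rpph1 with Pearson's r = 0.969 and Spearman's rho = 0.985. After removal of group means r was again 0.969, and without the 2 libraries farthest from the median of Rpph1 it was 0.958 over 14 libraries. Against Rmrp r was 0.912 and against Terc 0.924. These are descriptions over 16 libraries that share sequencing depth and scaling with the measures compared, and no p is given. The slope differed by class. For each doubling of Rpph1 the log2 sum rose by 1.07 in H4, 1.06 in H2A, 0.901 in H3, 0.360 in H2B and 0.188 in H1. Summed H4 accordingly ran from 497 to 7862 FPKM, a ratio of 15.8 between libraries, and summed H2A by a ratio of 14.03. Summed H1 ran from 2050 to 3615 FPKM, a ratio of 1.76. H4 was 6.78% of the histone sum in the library lowest in Rpph1 (SHP2-null with BCR-ABL1, replicate 0) and 28.5% in the one highest in it (SHP2 wild type with BCR-ABL1, replicate 2). The class makeup of the measured histone mRNA thus differed between libraries low and high in Rpph1.

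**Figure D2:**
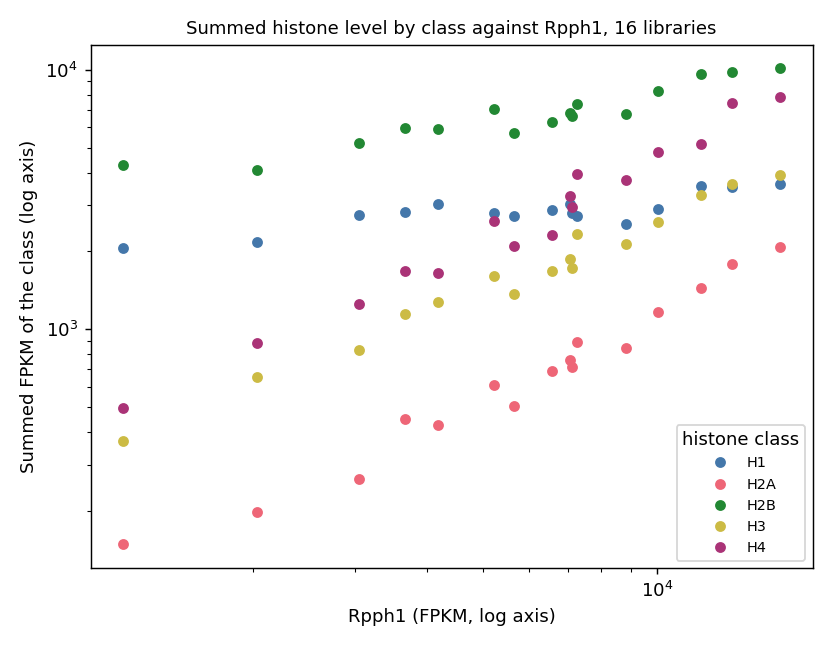
Summed FPKM of each histone class against Rpph1 FPKM in the 16 libraries (both axes log). H4, H2A and H3 rise steeply with Rpph1, with slopes of 1.07, 1.06 and 0.901, while H2B (0.360) and H1 (0.188) rise less.

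Most single members followed Rpph1, and they did so to different degrees. Pearson's r of the log2 level with log2 Rpph1 was at least 0.8 for 53 of 65 members, or 81.5%, against 412 of 10209 genes, or 4.04%. The median r was 0.945 for the members and -0.01 for all genes. The median ratio of the highest to the lowest library was 8.56 for the members and 1.55 for all genes. The lowest r of the 12 H3 genes was 0.944, and those that share sequence may not be separate measurements. The steepest member was Hist1h2ak, an H2A gene, with a slope of 1.47 and levels from 1.75 to 126 FPKM. The H4 gene Hist1h4c had a slope of 1.30 and ran from 63.8 FPKM in SHP2-null replicate 0 with BCR-ABL1 to 1721 FPKM in SHP2 wild-type replicate 2 with BCR-ABL1.

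The flattest members included H1 genes, the most abundant H2B genes and Hist2h2be. Hist1h1e, an H1 gene, had a slope of 0.10 and the lowest ratio of highest to lowest library among tested members, 1.40. Hist1h1a had a slope of 0.14 and ran from 1093 to 1809 FPKM. Hist2h2bb had a slope of 0.19 and ran from 1874 to 3176 FPKM, and Hist1h2bb had a slope of 0.26. Less abundant members were flat as well, with slopes of 0.24 for Hist3h2bb-ps, 0.30 for Hist3h2ba and 0.30 for Hist2h2aa2. The H1 genes Hist1h1c and Hist1h1d were steeper than these, at 0.36 and 0.43. Hist2h2be alone among tested members had a negative r, -0.364, with a slope of -0.10. Its product is the H2B variant known from olfactory neurons, and its mRNA is reported to be polyadenylated. The 9 tested members with reported polyadenylated transcripts were Hist1h1c, Hist1h2bc, Hist2h2be, Hist1h2be, Hist1h2ac, Hist3h2a, Hist3h2ba, Hist1h4h and Hist4h4. Of these, 7 had r of at least 0.8. The median ratio of highest to lowest library was 4.27 for the 9 genes, against 10.4 for the other members. By class the median ratio was 2.26 in H1, 4.29 in H2B, 10.4 in H3, 15.0 in H4 and 28.4 in H2A. The 9 genes include H1 and H2B genes and no H3 gene, and the contrast was not matched for class. Hist1h4h was as steep as other H4 genes, with a slope of 1.11.

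GC content was set beside this pattern. Rpph1, Rmrp and Terc have 67.1%, 63.7% and 67.1% GC, and the longest annotated transcript of the median member has 57.8%, against 49.2% over the 9602 tested genes with a transcript. Spearman's rho of the slope with GC content was 0.447 across the 65 members and 0.379 across all tested genes. Spearman's rho of r with GC content was 0.185 across the members and 0.426 across all tested genes. The median r of other genes was -0.157 below 45% GC and 0.841 at 65% GC or more. Among genes of 65% GC or more, 10 of 15 other genes and 10 of 10 members had r of at least 0.8. Among genes of 60 to 65% GC, 63 of 265 other genes and 13 of 15 members did. Among genes below 45% GC, 1 of 2650 other genes and 3 of 3 members did. When a smooth trend on GC content was removed from each library, the median within-group SD of the members on the log2 scale went from 0.885 to 0.804, and that of all genes from 0.143 to 0.127. The members' median r with Rpph1 went from 0.945 to 0.930, and 51 of the 53 members with r of at least 0.8 remained there. This trend was fitted over all tested genes with a transcript. At 65% GC or more only 15 other genes and 10 members lay, so the trend there drew mostly on genes of lower GC content. The GC trend of a library, taken as Spearman's rho of its genes' deviations from the group mean with GC content, ran from -0.478 to 0.543. The library with the most Rpph1 had the highest GC trend in 0 of 4 groups, and the one with the least Rpph1 had the lowest in 1. With BCR-ABL1 the library with the least Rpph1 came close to the lowest trend. It stood at -0.455 against -0.478 in SHP2-null cells and at -0.361 against -0.405 in SHP2 wild-type cells. In SHP2-null cells without BCR-ABL1 the order was the reverse, with 0.173 at the least Rpph1 and -0.198 at the most. A link between the GC trend and Rpph1 was not tested. The relations are across genes, which are not independent replicates.

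**Figure D3:**
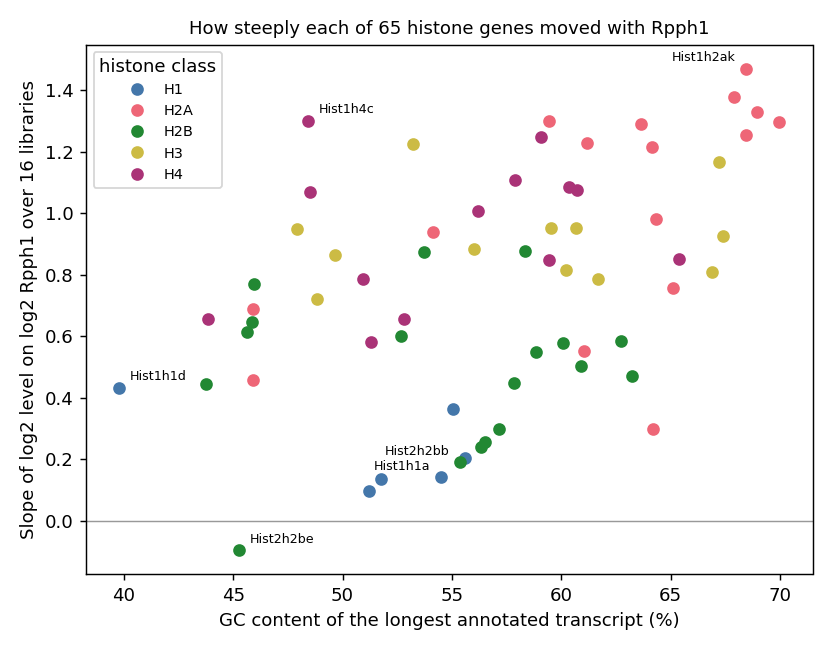
Slope of each tested member's log2 level on log2 Rpph1 over 16 libraries against the GC content of its longest annotated transcript, coloured by class. H2A genes of high GC content lie at the top, the H1 genes and the abundant Hist2h2bb lie low, and Hist2h2be lies below 0.

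Other short or polyA-negative RNAs were set beside the members. Of 96 other protein-coding genes with a longest transcript of at most 700 bases, 18 had r of at least 0.8, with a median of 0.344. Of 8 other tested RNAs without a poly(A) tail, 2 did (Rmrp and Terc), with a median of 0.314. Genes that make or handle histone mRNA had a narrow range. Slbp, which encodes the stem-loop binding protein, ran from 79.5 to 106 FPKM, and Npat, the histone gene coactivator, from 10.2 to 12.6 FPKM. Casp8ap2, of the histone locus body, ran from 17.3 to 22.9 FPKM, and Lsm10 and Lsm11, subunits of the U7 snRNP, from 10.6 to 15.7 and from 2.46 to 3.33 FPKM. Over 20 genes of histone mRNA processing and transcription the median r with Rpph1 was -0.138 and none reached 0.8. The median r was -0.236 for 19 histone chaperone genes, -0.01 for 34 S phase and DNA replication genes, of which 2 reached 0.8, and 0.306 for 9 replication-independent histone variants. The summed FPKM of the 34 S phase genes ran from 2098 to 2539, a ratio of 1.21, where that of the histone sum was 3.76.

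The first comparison was SHP2 loss in the presence of BCR-ABL1. In SHP2-null cells 59 of 65 members had a lower mean log2 level and 6 a higher one, where 42.7% of all 10210 tested genes had a positive change. The median change was -0.29 over the members and -0.02 over all genes. No member was called at an adjusted p below 0.05 by limma, where 0.313% of all genes were, and no member passed at an unadjusted p below 0.05, where 3.65% of genes did. The H4 gene Hist1h4d had the smallest p. It read 166, 368, 755 and 299 FPKM in SHP2 wild-type and 65.7, 254, 105 and 446 FPKM in SHP2-null cells, and the groups overlapped. Its log2 change was -1.03 ± 0.73 (SE, n = 4 and 4), with a limma adjusted p of 1.0. Hist1h3e changed by -1.03 ± 0.84 and Hist1h1t by 0.41 ± 0.30, with the same adjusted p. In the same comparison Rpph1 changed by -0.53 ± 0.67 and Rmrp by -0.59 ± 0.46. With Rpph1 as a covariate the members' median change was 0.08, with 46 of 65 positive (41.9% of all genes), and no member was called (0.333% of genes). No member was called with the replicate block either (0.47% of genes).

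**Figure D4:**
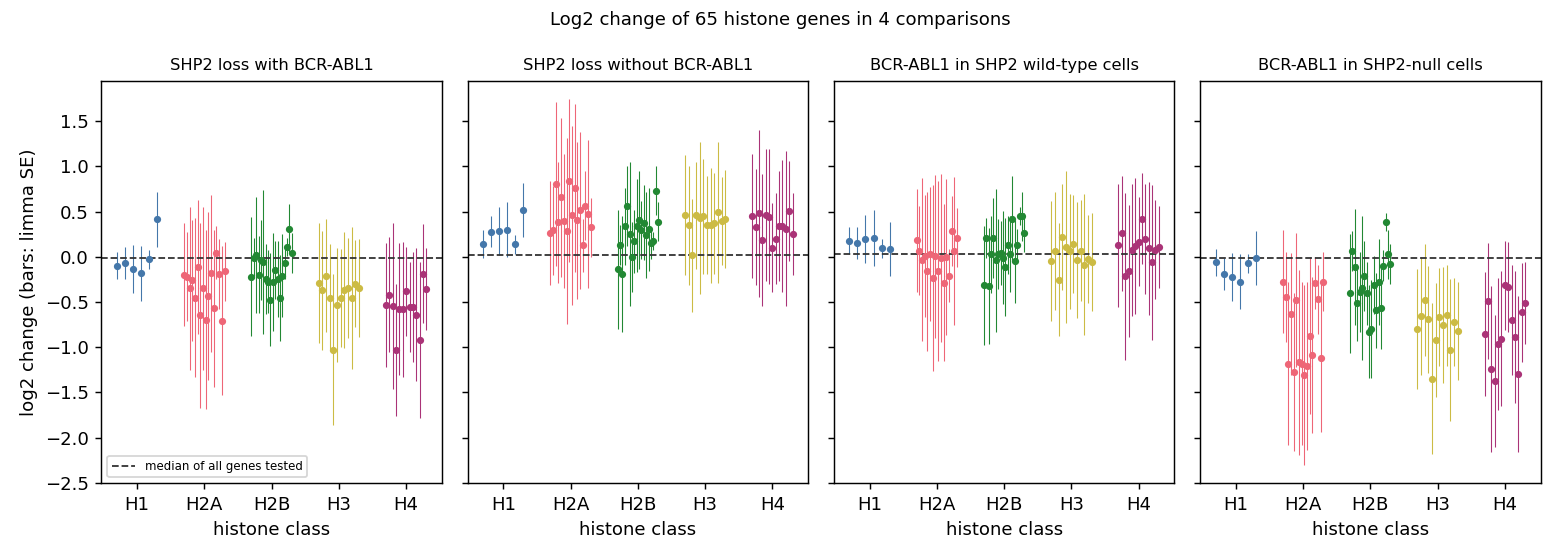
Log2 change of each of the 65 tested members, by class, in 4 comparisons, with bars of 1 SE from limma. The dashed line is the median of all tested genes. Members lie mostly below it for SHP2 loss with BCR-ABL1 and for BCR-ABL1 in SHP2-null cells, and mostly above it for SHP2 loss without BCR-ABL1.

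Loss of SHP2 without BCR-ABL1 was compared next. Here 62 of 65 members had a higher mean log2 level in SHP2-null cells, against 55.9% of all genes. The median change was 0.35 over the members and 0.02 over all genes. No member was called by limma (1.54% of genes were), and 1 passed at an unadjusted p below 0.05, where 16.1% of genes did. That member was Hist3h2ba, an H2B gene on chromosome 11 (58948920 to 58949533). It read 12.8, 14.8, 22.3 and 20.9 FPKM in SHP2 wild-type and 24.95, 24.1, 27.5 and 44.1 FPKM in SHP2-null cells. It was the one member whose groups did not overlap, where 9.09% of all genes did not. Its log2 change was 0.73 ± 0.27 (SE, n = 4 and 4), with a limma adjusted p of 0.203. Same-number libraries deviated together in this comparison, and with the replicate number as a block Hist3h2ba was called (limma adjusted p = 0.0165), as were 5.75% of all genes. Its neighbour Hist3h2bb-ps, annotated as a pseudogene, changed by 0.39 ± 0.22, with a limma adjusted p of 0.398. Rpph1 changed by 0.43 ± 0.67 and Rmrp by 0.15 ± 0.46. With Rpph1 as a covariate the members' median change was 0.01, with 33 of 65 positive (55.2% of all genes). No member was called then (2.64% of genes), and the change of Hist3h2ba was 0.59 ± 0.16 (limma adjusted p = 0.0678).

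The effect of BCR-ABL1 in SHP2 wild-type cells was small for most members. A higher mean log2 level with BCR-ABL1 was seen for 42 of 65 members and 59.8% of all genes, and the median change was 0.06 for members and 0.04 for all genes. By limma 1 member was called, where 4.67% of all genes were, and the same gene passed at an unadjusted p below 0.05, where 19.1% did. It was Hist2h2be, at chromosome 3, 96221119 to 96223738. Hist2h2be read 2.93, 2.41, 2.32 and 1.97 FPKM without BCR-ABL1 and 4.63, 3.65, 3.10 and 3.30 FPKM with it. All 4 libraries with BCR-ABL1 lay above the 4 without, which held for no other member and for 11.7% of all genes. Its log2 change was 0.45 ± 0.10 (SE, n = 4 and 4), with a limma adjusted p of 0.0201. The call was lost without replicate 2 or 3 of the wild-type cells without BCR-ABL1 (adjusted p = 0.0655 and 0.0694), without replicate 0 of the wild-type cells with it (0.0656), and in a fit of these 2 groups alone (0.0806), and over all alternatives the adjusted p ran from 0.00639 to 0.0806. Hist3h2ba (0.45 ± 0.27), Hist3h2bb-ps (0.27 ± 0.22) and Hist1h1a (0.18 ± 0.15) followed in order of p and were not called. Rpph1 changed by 0.12 ± 0.67 and Rmrp by 0.16 ± 0.46. With Rpph1 as a covariate the members' median was -0.04, with 25 of 65 positive (59.3% of all genes), and 2 members were called (7.4% of genes). They were Hist2h2be (0.46 ± 0.09, limma adjusted p = 0.00948) and Hist1h3c (-0.36, 0.0398), an H3 gene named after its values were seen.

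BCR-ABL1 in SHP2-null cells went with a lower mean log2 level for 62 of 65 members, where 47.6% of all genes had a positive change. The median change was -0.59 for members and -0.01 for all genes, and 13 members differed by at least 2-fold, where 0.646% of all genes did. These were 8 of 16 H2A, 3 of 13 H4 and 2 of 12 H3 genes, and no H1 or H2B gene. None was called by limma, where 1.26% of all genes were. The smallest p belonged to Hist2h2be, the 1 member at an unadjusted p below 0.05, where 13.5% of genes were. It moved against most members and read 2.79, 3.34, 2.53 and 2.68 FPKM without BCR-ABL1 and 3.76, 4.03, 4.09 and 4.13 FPKM with it. These groups did not overlap, as for 7.07% of all genes. Its log2 change was 0.39 ± 0.10 (SE, n = 4 and 4), with a limma adjusted p of 0.0950. With the replicate block it was called (limma adjusted p = 0.0291), as were 5.27% of all genes. Hist1h4d changed by -1.37 ± 0.73 and Hist1h2bk, an H2B gene, by -0.83 ± 0.51 (limma adjusted p = 0.441 and 0.522). Rpph1 changed by -0.84 ± 0.67 and Rmrp by -0.59 ± 0.46. With Rpph1 as a covariate the members' median change was 0.03, with 39 of 65 positive (46.9% of all genes), and none was called (1.07% of genes). The comparisons share groups, so their values are set side by side and not counted as separate support.

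**Figure D5:**
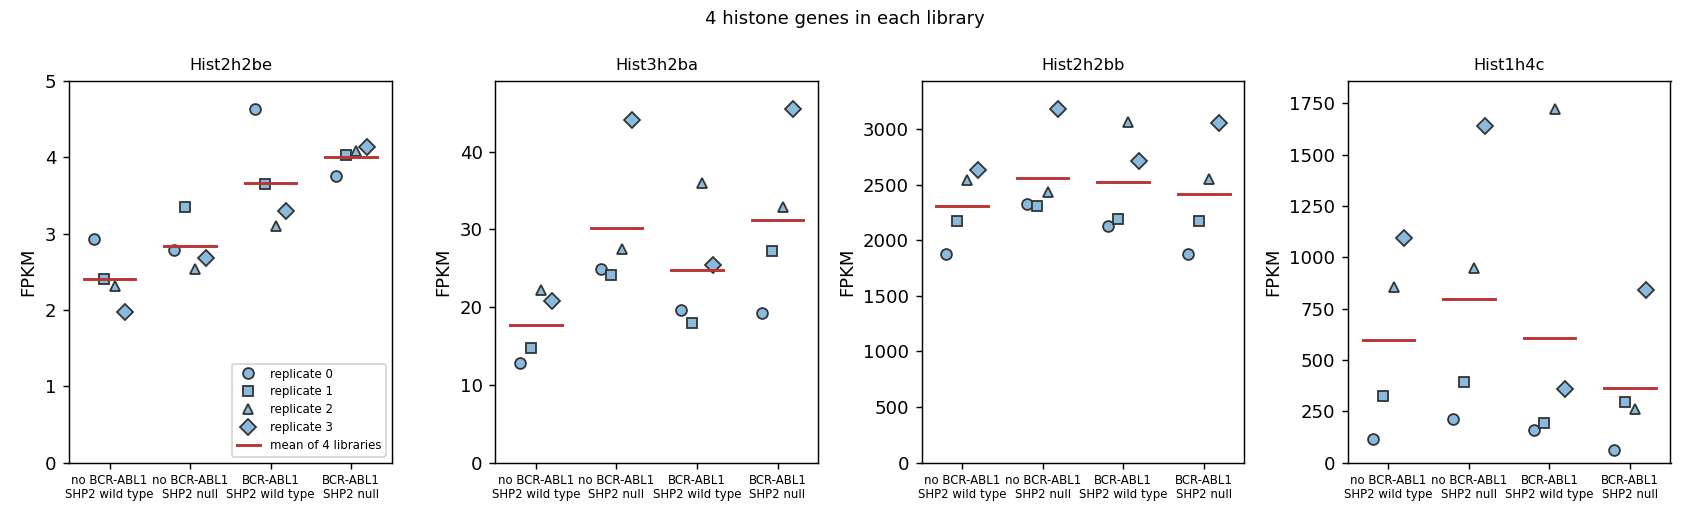
FPKM of 4 histone genes in each library (linear axes from 0), with symbols for the replicate number and red lines for group means. Hist2h2be is higher in all libraries with BCR-ABL1 than in those without it at the same SHP2 genotype, while Hist1h4c spans 63.8 to 1721 FPKM with no separation of groups.

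The interaction asked whether the effect of SHP2 loss differed between cells with and without BCR-ABL1. It was below 0 for 64 of 65 members, with a median of -0.69, where 39.7% of all genes were above 0 and the median was -0.04. No member was called by limma, as for all genes (0.0%), and no member passed at an unadjusted p below 0.05, where 5.79% of genes did. The smallest p belonged to Hist1h1b (-0.35 ± 0.25), Hist2h2ab (-0.76 ± 0.54) and Hist1h3e (-1.46 ± 1.19). Rpph1 gave -0.96 ± 0.95. With Rpph1 as a covariate the members' median was 0.04.

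The histone sums of the groups overlapped in every comparison. On the log2 scale it was -0.21 for SHP2 loss with BCR-ABL1, 0.23 for SHP2 loss without it, 0.12 for BCR-ABL1 with SHP2 present and -0.32 for BCR-ABL1 in SHP2-null cells. Between same-number libraries the sum was lower with BCR-ABL1 in 4 of 4 pairs of SHP2-null cells, with log2 ratios from -0.74 to -0.18. So were summed H2A, H2B, H3 and H4, Rpph1 and Rmrp, while summed H1 was lower in 2 of 4 pairs. Some of these pairs were nearly equal, with a smallest log2 difference of -0.0056 for Rmrp and -0.021 for summed H2B. With SHP2 loss the sum was lower in 2 of 4 pairs in the presence of BCR-ABL1 and in 1 of 4 in its absence. Leaving out 1 library turned the sign of 3 of them. The first was 0.18 without SHP2 wild-type replicate 2 and 0.01 without SHP2-null replicate 0 with BCR-ABL1. The second was -0.03 without SHP2-null replicate 3, and the third was -0.26 without SHP2 wild-type replicate 2 with BCR-ABL1 and -0.09 without SHP2 wild-type replicate 0 lacking it. Signs held under quantile normalization and median-ratio scaling.

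Of the genes around histone supply, few were called. The shares called among all tested genes were 1.54% for SHP2 loss without BCR-ABL1 and 4.67% for BCR-ABL1 with SHP2 present. Of 20 genes of histone mRNA processing and transcription, 1 was called in 1 comparison, Cpsf2, a subunit of the cleavage machinery, which rose by 0.31 ± 0.08 on the log2 scale with BCR-ABL1 in SHP2 wild-type cells (limma adjusted p = 0.0426). Slbp changed there by 0.06 ± 0.10 and Npat by 0.03 ± 0.07. Of 19 chaperone genes, Daxx, which deposits the variant H3.3, rose by 0.25 ± 0.06 with SHP2 loss without BCR-ABL1 (limma adjusted p = 0.0434). Of 9 variant genes, H2afv, an H2A.Z gene that is not replication-dependent, rose by 0.34 ± 0.07 in that comparison (0.0195) and by 0.36 ± 0.07 with BCR-ABL1 in SHP2 wild-type cells (0.00774). H2afv read 27.3 to 28.4 FPKM in SHP2 wild-type cells without BCR-ABL1 and 32.1 to 40.8 FPKM in the other 12 libraries. Of 34 S phase genes, Cdc45, a replication helicase factor, rose by 0.22 ± 0.06 with BCR-ABL1 in SHP2 wild-type cells (0.0440). No gene of the 4 lists was called for SHP2 loss with BCR-ABL1, for BCR-ABL1 in SHP2-null cells or for the interaction. The S phase genes had a median change of -0.11 with SHP2 loss in cells with BCR-ABL1, with 32 of 34 below 0 and 3 at an unadjusted p below 0.05, where 42.7% of all genes were above 0 and 3.65% passed at that p. Most of these calls depended on the setting. Over 29 alternatives the call of Daxx was lost in 20 (limma adjusted p up to 0.222), that of Cdc45 in 14 (up to 0.137) and that of Cpsf2 in 12 (up to 0.120). The call of H2afv was lost in 5 of 29 for SHP2 loss (up to 0.0662) and in 0 of 29 for BCR-ABL1 (up to 0.0326).

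The libraries matched their SHP2 label and cell type in outline, while their BCR-ABL1 status was not checked. Ptpn11 ran from 15.7 to 18.0 FPKM in wild-type and from 2.87 to 7.43 FPKM in null libraries. All 14 pre-B cell markers passed the filter, against 4 of 13 myeloid, 1 of 12 T and NK cell, 1 of 11 erythroid and megakaryocyte and 1 of 12 stromal markers. Summed myeloid markers ran from 3.54 to 38.4 FPKM except in SHP2-null replicate 2 without BCR-ABL1, at 426 FPKM, where the histone sum lay inside its group's range. Their part in the results was not tested.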

How the data were processed

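The authors deposited FPKM values, 1 column per library and genes by symbol, per the file headers, in a series table that all 16 single-library files repeat. Each library was made from 150 ng of RNA with a stranded polyA kit and read from both ends for 100 cycles, per the labels. The submitters' processing notes name Bowtie, Cufflinks and mm10 (GRCm38). Versions, annotation, strand handling and multiply mapped reads: not given in the sources used here. Whole reads could not be recovered (at most 18.8% of genes below 0.05 FPKM stood at the commonest ratio between 2 libraries, within 1%), so depth is unknown.

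The 73 member entries gave 67 symbols, since 6 were listed more than once and summed. The 10210 genes that reached 1 FPKM in 4 or more libraries were analysed as log2(FPKM + 1), the scale of all fold changes, which understates changes of low genes. One fit in limma 3.58.1 (R 4.3.3) of the 4 groups, with the prior variance trended on level, served all 5 contrasts. Tests were two-sided, p-values were adjusted by Benjamini-Hochberg over the 10210 genes, and a call is an adjusted p below 0.05. The fit was tested on simulated data in which each gene varied independently. That test does not show how the fit behaves for genes that vary together, as the members did. Members, gene lists and tests were chosen with earlier results of these data known. Named genes followed a rule: the 3 highest members per class, up to 8 called members per comparison (or the 3 smallest p), tested members with reported polyadenylated transcripts, Rpph1, Rmrp, Slbp, Npat, Casp8ap2, Lsm10, Lsm11 and up to 4 called genes per list, with some left out for length. Other genes (rare stem-loop forms, extreme slopes, promoter examples) were named after their values were seen.

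Deviations from the group means correlated between same-number libraries at 0.218 to 0.783 (SHP2 loss with BCR-ABL1), 0.189 to 0.510 (SHP2 loss without it) and 0.242 to 0.680 (BCR-ABL1 in SHP2-null cells). The number was taken to pair libraries there, from the data and not the labels.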

Additional observations from a re-analysis of the deposited data

Results flagged for a closer look

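In 42 quantities (named members, histone sums and context genes), each of the 168 groups of 4 libraries was searched for a library far from the other 3. It found 11, where chance gives about 1 in 20 groups, and no explanation was weighed. In SHP2 wild-type replicate 2 with BCR-ABL1, the library with the most Rpph1, Hist1h4c read 1721 FPKM (156.9 to 361 in the other 3), Hist2h2aa1 625 FPKM (58.5 to 146), Rmrp 7869 FPKM (3897 to 4558) and summed H1 3615 FPKM (2722 to 2809). In SHP2-null replicate 3 without BCR-ABL1, Hist2h2bb read 3176 FPKM (2309 to 2430), Hist3h2ba 44.1 FPKM (24.1 to 27.5), Hist3h2bb-ps 47.7 FPKM (26.6 to 29.8) and Casp8ap2 21.4 FPKM (19.3 to 19.5). In SHP2-null replicate 3 with BCR-ABL1, Hist1h2bk read 355 FPKM (144 to 171). In SHP2 wild-type replicate 0 without BCR-ABL1, Hist1h1c read 172 FPKM (292 to 310.4) and Hist2h2ab 4.48 FPKM (12.02 to 13.5), both below the rest.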

How the results depend on the processing

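The counts of called members were recomputed under up to 29 alternatives, and stayed at 0 for SHP2 loss with BCR-ABL1 and for the interaction. For SHP2 loss without BCR-ABL1 the count was 1, Hist3h2ba, with the replicate block, with Rpph1 as a covariate and the replicate block, and with the GC correction and the replicate block. For BCR-ABL1 in SHP2 wild-type cells the main count of 1 became 0 with a filter of a mean of at least 5 FPKM, which leaves Hist2h2be out, and 0 with only the groups compared. It was 2 with Rpph1 as a covariate (Hist2h2be and Hist1h3c) and 3 with this and the replicate block, which added Hist3h2ba (adjusted p = 0.0134), and leaving out single libraries gave 0 to 1. Here the lowest correlation between same-number libraries was 0.0549 and the highest 0.643, so the number was not taken to pair libraries. The block, which was fitted over all groups and thus over these as well, left the count at 1. For BCR-ABL1 in SHP2-null cells the count of 0 became 1, Hist2h2be, with the replicate block, with array weights, with the GC correction and the replicate block, and without SHP2 wild-type replicate 0 with BCR-ABL1 (range 0 to 1). The GC correction and both fits joining a covariate or GC with the block were added after the data were seen. Adjusted p over the alternatives ran from 0.00639 to 0.0806 for Hist2h2be in SHP2 wild-type cells, from 0.0237 to 0.269 in SHP2-null cells, and from 0.00628 to 0.347 for Hist3h2ba. The cause was not tested. Over all genes the counts of 32, 157, 477 and 129 calls ran from 11 to 57, 33 to 644, 186 to 1587 and 28 to 1861. The ratios of mean sums ran from -0.55 to 0.18, -0.03 to 0.39, -0.26 to 0.28 and -0.66 to -0.06 (log2). The block alone, with no covariate, changed the call of Hist3h2ba and Hist2h2be as given and of no other member. Depth is unknown, and reads of near-identical members may have been split or dropped.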

Other observations

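Genes outside the histone clusters that followed the histone sum most closely were listed after their values were seen. Of 10145 other tested genes, 110 had r of at least 0.9 with its log2 value over the 16 libraries. The closest were Ptprcap, which encodes a CD45-associated protein (r = 0.982, 76.5 to 154 FPKM), Yif1b (0.977, 10.9 to 23.4 FPKM), the splicing factor gene Sf3b5 (0.976, 18.8 to 49.5 FPKM) and Rnaseh2c, a subunit of RNase H2 (0.974, 6.41 to 23.2 FPKM). The acidic ribosomal stalk genes Rplp2 (0.974, 429.6 to 1346 FPKM) and Rplp1 (0.967, 602 to 1741 FPKM) were close as well. Their slopes on Rpph1 were 0.28 for Ptprcap, 0.27 for Yif1b and 0.47 for Rplp2, below the members' median of 0.79. The 76 tested ribosomal protein genes had a median r with Rpph1 of 0.534, and 18 of them reached 0.8. Of the 9 tested histone variant genes, 1 reached 0.8. The sets share libraries and scaling, and nothing is drawn from the likeness.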
